A study of Homo sapiens with 24 samples.

Results

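The early response to artesunate was examined on 12 of 24 arrays: 6 arrays of lymphoma cells after 4 h with 5 μM artesunate, set against 6 arrays of the same cell lines at 0 h without treatment. Each side held 2 arrays of each of 3 established human cell lines, labelled BL41, Su-4 and Ocily2. BL41 (BL-41 in the text that follows) comes from a Burkitt lymphoma. Su-4 (SU-DHL-4) and Ocily2 (Oci-Ly-2) come from diffuse large B-cell lymphomas. All 12 arrays entered one limma model with the cell line as a term. No untreated 4 h array was among the samples, so artesunate and the 4 h in culture cannot be told apart in this comparison. The 6 arrays at 12 h without treatment served to mark probes that drifted with time in culture. The 6 arrays at 12 h with 5 μM artesunate were used to follow the genes that moved at 4 h.

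The RNA was total RNA of whole cultures on Illumina HumanHT-12 v4 BeadChips, on which each probe reads a short stretch of 1 transcript. The paper's methods call the 2 arrays of a group technical replicates. Each p-value therefore covers array-to-array spread, and separate cultures may differ by more. In RNA from whole cultures, fewer cells that make a transcript and less of it per cell cannot be told apart.

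Artesunate is a derivative of artemisinin, an endoperoxide drug against malaria that reacts with heme and iron and damages many proteins. Cells answer damaged proteins and amino acid shortage by phosphorylating the translation factor eIF2α, which slows protein synthesis and raises ATF4, a transcription factor. ATF4 then turns on DDIT3 (CHOP), TRIB3, ASNS and genes for amino acid supply. A lasting answer of this kind can end in cell death.

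Between 16616 and 17465 probes were detected on the 4 h artesunate arrays and between 16156 and 17921 on the 0 h control arrays, at a detection p under 0.05. The 2 arrays of a group correlated with each other at 0.985 to 0.992 across the tested probes, which are not independent replicates. The labelled cell type was checked on 10 markers of germinal centre B-cells, of which 9 were on the array. Of these, 6 (MS4A1, CD79A, CD79B, CD22, BCL6 and MME) were detected on all 12 arrays, and the PAX5 probe was detected on none. The summed linear signal of the 9 markers ranged from 11145 to 16607 on 4 h artesunate arrays and from 10470 to 16664 on 0 h control arrays. Of 8 T-cell markers on the array, 6 were detected on none of the 12 arrays and 0 on all of them. Of 8 myeloid markers, 5 were detected on none and 1 (LYZ) on all 12. Of 6 erythroid and platelet markers, 3 were detected on none and 0 on all. Plasma cell markers were not absent: of 5, MZB1 and JCHAIN were detected on all 12 arrays and 4 on 7 or more.

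After 4 h of artesunate the transcripts that moved were almost all lower. Calls required a log2 difference past 0.5 in either direction with an adjusted p (Benjamini-Hochberg, all 22072 tested probes) below 0.01. Limma called 315 probes, which is 1.43% of those tested. Of these, 307 were lower (1.39% of tested probes) and 8 were higher (0.0362% of tested probes). They represented 153 genes that fell, 1.3% of 11766 gene symbols tested, and 6 genes that rose, 0.051% of them. The genes that fell had a median log2 change of −0.62, with values between −1.08 and −0.50. All 315 called probes had the same sign in all 3 cell lines. On 308 of them both 4 h arrays lay beyond both 0 h arrays in every cell line, as 6.39% of all tested probes did. Both counts come from the arrays that the call used and are largely fixed by it, so they are not separate evidence that the lines agree. At an unadjusted p under 0.05 the direction was more even, with 1828 probes lower and 1632 higher.

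**Figure D1:**
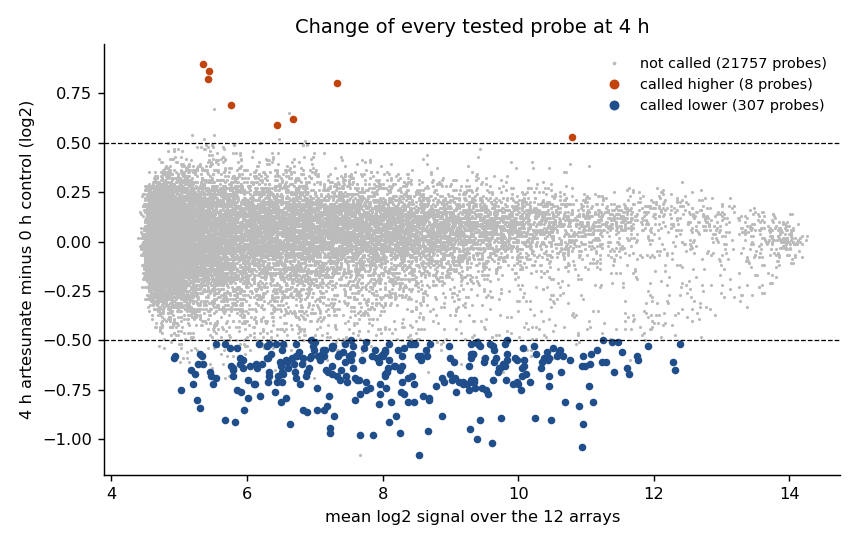
Log2 difference of 4 h artesunate minus 0 h control against the mean log2 signal over the 12 arrays, 1 point per tested probe, with dashed lines at the fold limit of 0.5. The 307 probes called lower spread over dim and bright probes, short of the brightest, and 8 probes were called higher.

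PTMA, which encodes prothymosin α, an abundant acidic nuclear protein of dividing cells, fell most. Its log2 signal was 7.77, 7.98 and 8.21 (lowest, median and highest of 6 arrays) on 4 h artesunate arrays, and 8.93, 9.05 and 9.22 on 0 h control arrays. The groups did not overlap in any cell line. The log2 change was −1.08 (SE 0.10, limma adjusted p = 0.000138), with −1.16 for BL-41, −1.14 for SU-DHL-4 and −0.95 for Oci-Ly-2.

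G3BP1, a core RNA-binding protein of stress granules, had log2 signals of 6.26, 6.62 and 7.44 at 4 h with artesunate and 6.94, 7.63 and 8.55 at 0 h. The ranges overlapped over all arrays because SU-DHL-4 had a higher level than the other lines, and within each line both 4 h arrays were below both 0 h arrays. Its change was −0.94 (SE 0.09, adjusted p = 0.000142). SUMO2, a small protein attached to other proteins under stress, was between 8.16 and 8.41 on 4 h artesunate arrays and between 8.94 and 9.19 on 0 h control arrays. The groups were apart without overlap, and SUMO2 changed by −0.79 (SE 0.08, adjusted p = 0.000142).

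LSM5, a subunit of the ring that binds U6 RNA in splicing, fell by 0.86 (SE 0.10), and LSM6 of the same ring by 0.79 (SE 0.11). LSM5 had log2 signals of 5.92, 6.58 and 6.89 at 4 h with artesunate and of 7.01, 7.30 and 7.70 at 0 h, again with no overlap. NDUFAF4, an assembly factor of respiratory complex I, fell by 0.85 (SE 0.10), OMA1, a stress-activated protease of the inner mitochondrial membrane, by 0.84 (SE 0.13) and MIGA1, which promotes mitochondrial fusion, by 0.97 (SE 0.11). FAIM, an inhibitor of Fas-induced apoptosis, fell by 0.91 (SE 0.16) and MPLKIP, a nuclear protein linked to trichothiodystrophy, by 0.90 (SE 0.11). LINC01018, a long non-coding RNA, fell by 0.95 (SE 0.11), and the ribosomal protein pseudogene RPL23AP87 by 0.83 (SE 0.10). The adjusted p of these genes was at most 0.00412, the value of FAIM. The called OMA1 probe was detected on 3 of 6 arrays at 4 h with artesunate and on 6 of 6 at 0 h, which places its 4 h level near the detection limit. Brighter probes of the same genes read 0.15 (SE 0.10) for NDUFAF4, −0.25 (SE 0.08) for OMA1, −0.09 (SE 0.09) for FAIM and 0.004 (SE 0.09) for MPLKIP. None of these brighter probes was called. FBXO38, which falls outside the rule for named genes, was the 1 called gene whose called probe no 4 h array detected. That probe was at least 1.5-fold lower. The further probe of FBXO38 was brighter (mean log2 signal 7.66 against 5.02) and read 0.17 (SE 0.08).

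**Figure D2:**
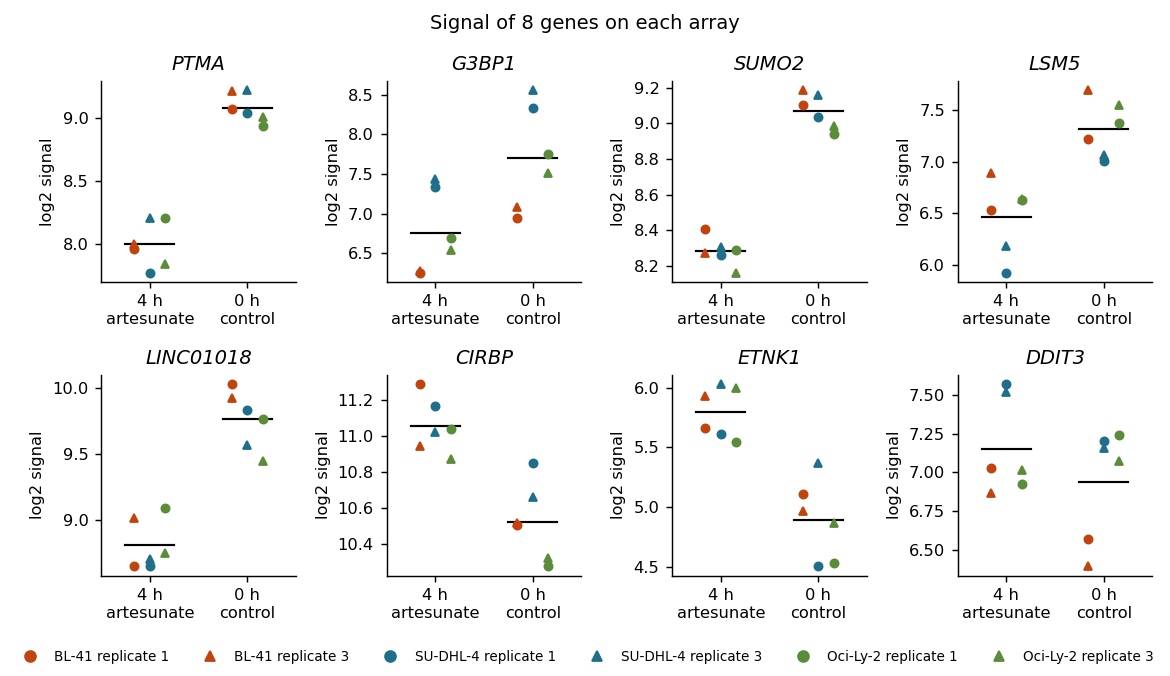
Log2 signal of 8 genes on each of the 12 arrays, 4 h artesunate at the left of each panel and 0 h control at the right, with colour for the cell line, marker shape for the replicate and a line for the mean of 6 arrays. PTMA, SUMO2, LSM5, LINC01018, CIRBP and ETNK1 do not overlap between the groups, G3BP1 separates within each line, and DDIT3 overlaps.

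The 6 genes that rose at 4 h are given in the order of their change. ETNK1, an ethanolamine kinase at the start of phosphatidylethanolamine synthesis, had log2 signals of 5.55, 5.80 and 6.03 at 4 h with artesunate, against 4.51, 4.92 and 5.37 at 0 h. Its probe was detected on 6 of 6 arrays at 4 h and 4 of 6 at 0 h, and its change was 0.90 (SE 0.14, adjusted p = 0.0022). ATE1, which adds arginine to protein ends for degradation, rose by 0.82 (SE 0.10), MAGOHB, an exon junction protein, by 0.69 (SE 0.12), EYA3, a transcriptional coactivator and phosphatase, by 0.62 (SE 0.10) and STOM, the membrane protein stomatin, by 0.59 (SE 0.10). CIRBP, an RNA-binding protein known for its rise in mild cold, was 10.87, 11.03 and 11.29 at 4 h with artesunate, against 10.27, 10.51 and 10.85 at 0 h. Every 4 h array of CIRBP was above every 0 h array, and the change was 0.53 (SE 0.09, adjusted p = 0.00372). SELENOI (0.43), ITCH (0.45), ERCC2 (0.46) and FAM234B (0.46) had an adjusted p of at most 0.00819 but stayed under the fold limit.

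With the cell line taken as the replicate, the calls were not kept. A fit on the 6 group means, which leaves 2 residual degrees of freedom, called 0 genes at an adjusted p under 0.01 and had a smallest adjusted p of 0.0134. In the same fit 3810 of 22072 probes had an unadjusted p under 0.05, and 495 had an adjusted p under 0.05. Of the called genes, 146 of the 153 that fell and 6 of the 6 that rose were under that adjusted limit. They had been picked on the same arrays and the same log2 changes, so these counts are not separate support for the calls. Without the BL-41 arrays, and likewise without the SU-DHL-4 arrays, 0 genes were called, and without the Oci-Ly-2 arrays 9 were called lower. Of 12 fits that left out 1 array each, 5 kept the call of FAIM, 5 that of STOM, 5 that of CIRBP and 3 that of MYC. In the authors' processed intensities, which equal quantile-normalized signals without background correction, several changes were smaller by more than 1.5 times, with 0.32 for ETNK1, 0.30 for ATE1, 0.28 for MAGOHB, −0.38 for FAIM, −0.36 for MPLKIP and −0.29 for OMA1. With the 12 h controls in place of the 0 h controls, 74 of the 153 genes that fell and 1 of the 6 that rose kept their call.

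The median log2 change of the 153 genes that fell was −0.66 for BL-41, −0.68 for SU-DHL-4 and −0.55 for Oci-Ly-2. The median SE of 1 line's change was 0.18. A limma F test of the difference between lines called 0 of 22072 probes, with 831 (3.76%) at an unadjusted p under 0.05. Among called genes, the F value was largest for PRKDC, the catalytic subunit of DNA-dependent protein kinase. PRKDC changed by −0.66 (BL-41), −1.03 for SU-DHL-4 and −0.32 for Oci-Ly-2. The difference of SU-DHL-4 minus Oci-Ly-2 was −0.72 (SE 0.23, unadjusted p = 0.00918). TSEN15, a subunit of the tRNA splicing endonuclease, followed with −0.52, −1.11 and −0.54 in the same lines, and neither difference passed the adjusted threshold. Both called probes were dim at 4 h with artesunate, where that of PRKDC was detected on 4 of 6 arrays and that of TSEN15 on 2 of 6. The brighter probes did not share the fall, with 0.07, −0.07 and 0.07 for PRKDC and 0.16 and 0.07 for TSEN15.

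Several genes of RNA handling and translation fell, while most members of their families missed the threshold. Of 32 cytosolic ribosomal protein genes tested, 3 fell and 0 rose, where 1.3% of all symbols fell, and the list median was 0.03 against 0.04 over all symbols. RPL9 fell by 0.73 (SE 0.11), RPL23 by 0.67 (SE 0.09) and RPL14 by 0.59 (SE 0.12). RPL23 had log2 signals of 10.95, 11.27 and 11.73 at 4 h with artesunate, against 11.73, 11.88 and 12.27 at 0 h, so the groups met at their edges.

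Of 26 genes of translation initiation and stress granules, 3 fell and 0 rose (1.3% of all symbols fell), with a list median of 0.05. They were G3BP1, PABPC1, which binds poly(A) tails and fell by 0.70 (SE 0.09), and TIA1, an RNA-binding protein of stress granules that fell by 0.62 (SE 0.10). Brighter probes of TIA1 read −0.009 (SE 0.09) and −0.014 (SE 0.09). FAM98A changed by −0.47 with an adjusted p of 0.00241, under the fold limit. Of 28 spliceosome genes, LSM5, LSM6 and HNRNPC fell and 0 rose, again beside 1.3% of all symbols, with a list median of 0.11.

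Among chaperones of the cytosol, 2 of 23 genes fell and 0 rose, against 1.3% of all symbols that fell, with a list median of −0.08. PTGES3, the HSP90 co-chaperone p23, had log2 signals of 8.34, 8.54 and 8.66 at 4 h with artesunate and 9.01, 9.21 and 9.45 at 0 h. There was no overlap, and PTGES3 changed by −0.69 (SE 0.09, adjusted p = 0.00101). CHORDC1, another HSP90 partner whose gene is a target of the heat shock factor HSF1, fell by 0.58 (SE 0.10, adjusted p = 0.00325). HSPA4 changed by −0.49 (adjusted p = 0.0183) and HSPB1 by −0.35 (adjusted p = 0.112).

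Stress pathways act on promoters through short DNA motifs, and 5 of these motifs were sought in both strands from 250 bases before to 50 bases after the start site, in RefSeq promoters of build GRCh38.p14. Of the 153 genes that fell, 118 had a promoter in the table. The heat shock element, alternating GAA, TTC and GAA blocks with 2 bases between blocks, was in 2 of the 118 (1.69%), against 31 of 9357 tested symbols (0.331%) and 0.49% of all 35116 promoters. The ATF4 and C/EBP composite TGATGNAA was in 2 (1.69%, against 1.85% of tested symbols and 3.62% of all promoters), the antioxidant element TGACNNNGC in 15 (12.7%, against 15.5% and 13.3%) and the E-box CACGTG in 10 (8.47%, against 10.2% and 7.26%). The ER stress element, CCAAT and CCACG with 9 bases between them, was in 0, against 0.16% and 0.0769%. The promoters of 2 genes are shown, that of the gene with the largest fall and that of the chaperone partner with heat shock elements. Capitals mark the antioxidant element, at position −190 from the start site of PTMA (chr2:231708275-231708574, plus strand), and 3 overlapping heat shock elements at positions −60, −55 and −50 from that of CHORDC1 (chr11:90223000-90223299, minus strand). A match is a description of the letters and not a bound site.
PTMA: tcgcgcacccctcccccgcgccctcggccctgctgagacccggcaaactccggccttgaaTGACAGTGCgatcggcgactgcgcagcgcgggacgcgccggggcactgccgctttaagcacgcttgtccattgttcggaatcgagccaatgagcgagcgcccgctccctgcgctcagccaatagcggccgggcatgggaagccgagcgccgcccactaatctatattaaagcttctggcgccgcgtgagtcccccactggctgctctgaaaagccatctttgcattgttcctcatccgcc
CHORDC1: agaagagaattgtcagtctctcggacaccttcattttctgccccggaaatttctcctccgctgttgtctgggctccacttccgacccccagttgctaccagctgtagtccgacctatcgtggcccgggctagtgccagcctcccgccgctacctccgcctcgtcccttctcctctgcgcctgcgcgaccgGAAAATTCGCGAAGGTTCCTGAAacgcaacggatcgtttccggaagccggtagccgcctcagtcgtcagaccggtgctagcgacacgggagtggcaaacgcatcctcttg

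Of 21 immediate early and AP-1 genes, 2 fell and 0 rose, where 1.3% of all symbols fell, with a list median of −0.09. ZFP36L1, which destabilises messages with AU-rich elements, fell by 0.83 (SE 0.14, adjusted p = 0.00363), with 6.20, 6.77 and 7.27 at 4 h with artesunate against 7.26, 7.55 and 8.09 at 0 h, which touch at their edges. MYC, the oncogenic transcription factor, had 1 called probe that fell by 0.51 (SE 0.10, adjusted p = 0.00756), and its other probe read −0.05 (SE 0.09, adjusted p = 0.853). MYC kept its call in 9 of 30 alternative settings. SLBP, a processing factor of histone messages, fell by 0.53 (SE 0.10), UQCRH, a subunit of respiratory complex III, by 0.63 (SE 0.08) and FKBP14, a folding enzyme of the endoplasmic reticulum, by 0.52 (SE 0.09). These falls were on the called probe alone. The other probe read 0.22 (SE 0.10) for SLBP, 0.10 (SE 0.09) for UQCRH and 0.08 (SE 0.12) for FKBP14. It was brighter than the called probe for SLBP and UQCRH and dimmer for FKBP14. EIF2AK4 (GCN2), the kinase that senses uncharged tRNA and phosphorylates eIF2α, fell by 0.58 (SE 0.10, adjusted p = 0.00527).

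The stress genes downstream of ATF4 had not moved past the threshold at 4 h. Of 19 tested genes of the ATF4-CHOP list, 0 were called at 4 h, where 0.051% of all symbols were called higher and 1.3% lower, so that a list of this size would hold few or none. An unadjusted p under 0.05 was found for 3 of them, all higher, against 8.47% of all symbols in that direction, and the median was 0.07. DDIT3 had log2 signals of 6.87, 7.02 and 7.57 at 4 h with artesunate and 6.40, 7.11 and 7.24 at 0 h, ranges that overlapped, and it changed by 0.21 (SE 0.11, adjusted p = 0.357). By line this was 0.46 for BL-41, 0.36 for SU-DHL-4 and −0.18 for Oci-Ly-2. Without drug, DDIT3 was lower by 0.27 at 12 h than at 0 h (SE 0.07, limma unadjusted p = 0.00241). Its 4 h artesunate arrays lay above the 12 h control arrays in every line. Over 30 alternative settings the DDIT3 change lay between 0.09 and 0.48, with 0 calls. ATF4 itself read 0.01 (SE 0.09, adjusted p = 0.984) on its brightest probe and −0.31 and −0.28 on 2 others, with adjusted p of 0.172 and 0.231. PPP1R15A (GADD34), which reverses eIF2α phosphorylation, read 0.05, the chaperone HSPA5 (BiP) 0.02 and the sensor ATF6 0.21, with adjusted p between 0.28 and 0.971. ATF5 (0.39, adjusted p = 0.0581) and ASNS (0.35, adjusted p = 0.0653) had larger values that also missed the threshold.

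On the arrays at 12 h, which share no array with the 4 h comparison, 16 of the same 19 genes were called higher and 0 lower, with a median of 1.39. DDIT3 was higher by 2.98 (SE 0.11) and INHBE by 3.70 (SE 0.13) in 12 h artesunate against 12 h control arrays. The 3 lists of amino acid supply read alike. Of 18 cytosolic tRNA synthetases, 0 were called at 4 h and 8 rose at 12 h, of 18 genes of amino acid synthesis and folate 0 and 9, and of 11 amino acid transporters 0 and 7. The difference between times was not tested. Over all symbols, 3.36% were called higher and 2.26% lower at 12 h.

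**Figure D3:**
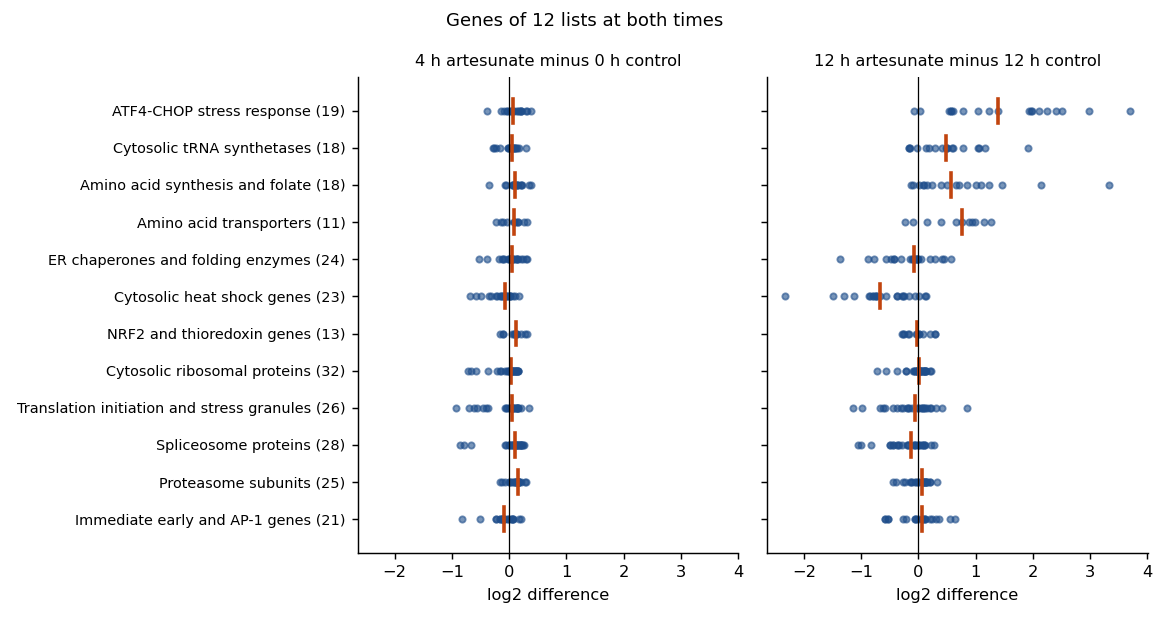
Log2 difference of each tested gene (points) and the list median (bar) for 12 gene lists, at 4 h against 0 h control on the left and at 12 h against 12 h control on the right, with the number of genes in brackets. The ATF4-CHOP list has a median of 0.07 at 4 h and 1.39 at 12 h, and the cytosolic heat shock list −0.08 and −0.67.

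Of the lists tied to artesunate's chemistry, 0 genes were called at 4 h, and at 1.3% of all symbols lower and 0.051% higher, lists of this size would hold few or none. They were 12 genes of heme synthesis and heme oxygenase, 10 of iron uptake and storage, 13 NRF2 and thioredoxin genes, 11 of lipid peroxide and glutathione defence and 6 metallothionein and zinc genes. ALAS1, the rate-limiting enzyme of heme synthesis, had the largest value of them, 0.67 (SE 0.15), with an adjusted p of 0.02. Its log2 signal was 5.68, 5.84 and 6.09 at 4 h with artesunate, against 4.57, 5.32 and 5.65 at 0 h, without overlap, and its other probe read 0.06. With the same shares as background, 0 genes were called among 25 proteasome subunits, 15 of ER-associated degradation, 20 of the BCL2 family and caspases, 13 of p53 and damage and 28 of replication and mitosis. PMAIP1 (NOXA), a BCL2 family member that promotes apoptosis, read −0.46 (adjusted p = 0.0038), under the fold limit. ACTB read −0.07 and GAPDH 0.11, with adjusted p of 0.744 and 0.588.

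Where a gene had more than 1 probe, the others mostly did not share the call. Of the 153 genes, 67 had 1 tested probe and 86 had another, and for each of these the brightest further probe was read. It was called for 1 gene, AK6 (called probe −0.50, further probe −0.56), an adenylate kinase that falls outside the rule for named genes. Over all tested probes 1.39% were called lower, so 86 probes would hold few. The further probe had the same sign for 40 of 86 genes, with an unadjusted p under 0.05 in 15 of them. At that limit 1828 of all 22072 tested probes were lower, and the median change of all tested probes was 0.02. The median was −0.60 for the called probes, which were chosen on these values, and 0.01 for the further ones, which were not.

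G3BP1 read −0.94 on the called probe and 0.11 (SE 0.10) on the further one, LSM5 −0.86 and −0.05, RPL9 −0.73 and 0.01, and PABPC1 −0.70 and 0.02. SUMO2 read −0.79 and 0.27 (SE 0.09, adjusted p = 0.157). For HNRNPC the probes moved apart, with −0.67 (SE 0.10, adjusted p = 0.00199) on one and 0.47 (SE 0.09, adjusted p = 0.00612) on the other. Of the 6 genes that rose, 3 had a further probe and 0 of those were called, where 0.0362% of all tested probes were called higher. The further probes read 0.28 (SE 0.09) and −0.22 (SE 0.10) for ETNK1, −0.09 (SE 0.10) and 0.14 (SE 0.09) for ATE1 and 0.27 (SE 0.13) for STOM. PTMA had 1 probe. Which part of each transcript the probes read was not examined here.

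**Figure D4:**
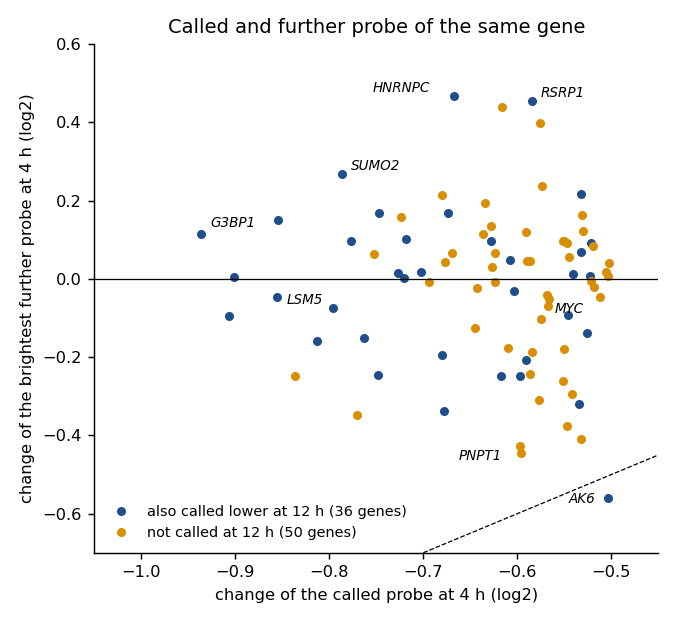
Log2 change at 4 h of the called probe (horizontal) and of the brightest further probe of the same gene (vertical) for the 86 genes that fell and had another tested probe, coloured by the call at 12 h, with the line of equal change dashed. The called probes reach −0.94 (G3BP1), and the further probes scatter around a median of 0.01, with AK6 near the dashed line.

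The called probes differed from the tested ones in annotation. Of the 315 called probes 49.2% had no gene symbol, against 29.0% of the tested probes. Among the 153 genes that fell, 138 (90.2%) were protein-coding in the RefSeq table, against 92.9% of all symbols tested. Pseudogenes were 8 of 153 (5.23%, against 2.11% of all symbols). A pseudogene probe can share sequence with the gene it was copied from. Whether the probes of the ribosomal protein pseudogenes RPL23AP87, RPL21P28 and RPL23AP64 (the last 2 outside the rule for named genes; −0.83, −0.81 and −0.71) also read their parent genes was not tested. Long non-coding RNAs were 5 (3.27%, against 2.7%), and genes named as zinc fingers (ZNF) were 8 (5.23%, against 2.77%). These shares are descriptions with no test, and the groups were chosen after the list had been seen.

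Time in culture was read from the 12 h controls against the same 0 h controls. Limma called 1 probe between them (0.00453% of those tested), with 2080 at an unadjusted p under 0.05. A called probe was marked where its 12 h control change had the same sign and either an unadjusted p under 0.05 or at least 0.5 of the size of the 4 h change. The mark fell on 60 of the 315 called probes (19.0%), and 44.3% of all tested probes met it. These shares cannot be compared, because the size part of the rule is met more easily where the 4 h change is small. The 4 h changes of all tested probes had quartiles of −0.09 and 0.12, while a call required a change past 0.5. Over the 307 lower probes the median 12 h control change was −0.11, in the direction of their fall. Among genes, the mark fell on 30 of the 153 that fell and on 1 of the 6 that rose. Unmarked genes that fell were 123, PTMA, G3BP1, SUMO2 and LSM5 among them, with 12 h control changes of 0.03, −0.14, 0.11 and −0.05. Marked ones included OMA1 (−0.55), LINC01018 (−0.32), ZFP36L1 (−0.29) and MIGA1 (−0.26). Both comparisons use the 0 h arrays, so a high 0 h value enters both. On 252 of the 307 lower probes the 4 h arrays lay below the 0 h and the 12 h control arrays of every line. The 307 were called against the same 0 h arrays. That count is therefore a description, and its share over all tested probes is not given here.

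At 12 h, on arrays that the 4 h comparison did not use, the falls divided. Of the 307 probes lower at 4 h, 143 (46.6%) were called lower in 12 h artesunate against 12 h control, where 2.55% of all tested probes were, and 0 were called higher, where 2.59% of all were. Another 101 had an unadjusted p over 0.05. By gene, 60 of 153 were called lower again, against 2.26% of all symbols. At 12 h PTMA changed by −1.30 (SE 0.09), G3BP1 by −1.15 (SE 0.08), SUMO2 by −1.20 (SE 0.08) and PTGES3 by −1.12 (SE 0.07). PTMA had log2 signals of 7.60, 7.75 and 8.17 in 12 h artesunate and 8.94, 9.05 and 9.40 in 12 h control arrays, so its 12 h controls lay where its 0 h controls did. Of the 6 genes that rose at 4 h, 0 were called higher at 12 h. Over all symbols 3.36% were, so 6 genes would hold few or none. EYA3, higher by 0.62 at 4 h, was called lower at 12 h, with a change of −0.64 (SE 0.12, adjusted p = 0.00194).

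The 2 sets of lower probes were split on their 12 h values, and the 12 h control arrays enter both that split and the drift values, so the sets are described with no test. On the 143 probes called again, the 12 h controls were near the 0 h level, with a median change of −0.04 and 3 drift marks. On the 101 with an unadjusted p over 0.05, the 12 h controls had a median of −0.20 and 42 carried the mark (41.6%). Their 4 h changes were alike, with a median of −0.68 in the first set and −0.60 in the second. LINC01018 belonged to the second set: it read −0.05 (SE 0.10) at 12 h, with 9.15, 9.39 and 9.67 in 12 h artesunate and 9.24, 9.39 and 9.77 in 12 h control arrays. The pseudogenes lay mostly in the first set, 6 of its 60 genes against 2 of 64, and the 5 long non-coding RNAs and 7 of the 8 ZNF genes in the second. By array, the first set's median lay between −0.76 and −0.57 of the 0 h mean at 4 h with artesunate. The second set's lay between −0.72 and −0.40 there, and between −0.45 and −0.09 in the 12 h controls.

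**Figure D5:**
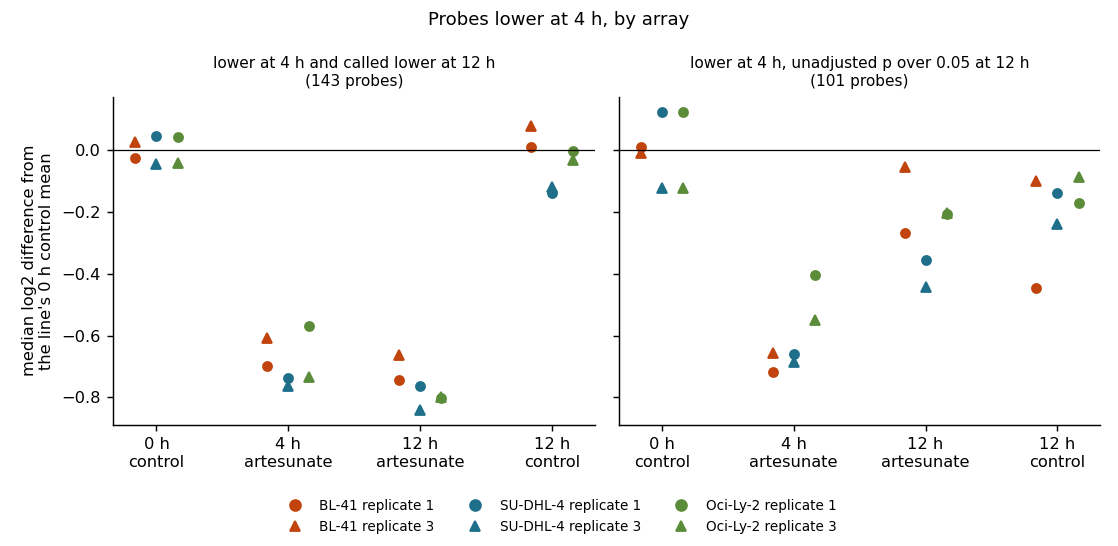
Median log2 difference of each array from its cell line's 0 h control mean, over the 143 probes lower at 4 h and called lower at 12 h (left) and the 101 probes with an unadjusted p over 0.05 at 12 h (right), with colour for the cell line and marker shape for the replicate. The first set stays low in 12 h artesunate, and in the second the 12 h artesunate and 12 h control arrays overlap below 0.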

How the data were processed

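The deposited data held the scanner's probe signals before normalization (intensity, linear) with a detection p-value per probe, and the authors' processed intensity values. How the authors normalized is not stated in what was read for this work, and limma is named in the submitters' processing notes. The processed values equal quantile-normalized raw signals within 0.0329 log2 units. Groups came from the sample labels. The study's text mentions a vehicle, while the labels call the controls untreated.

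Raw signals were background-corrected and quantile-normalized with neqc (limma 3.58.1, R 4.3.3, offset 16). Testing kept probes that 2 or more of the 12 arrays detected (p below 0.05) and used lmFit and eBayes, with the cell line as a term. A gene was read from its called probe with the smallest absolute change, or otherwise its brightest probe. The genes named were the 10 called ones with the largest change in each direction (filled up by smallest p), the 5 with the largest F between lines, the 4 list members of smallest p per list, the stress genes and MYC of the study's text, PTMA, G3BP1 and SUMO2 from earlier results, and ACTB and GAPDH. The annotation gave 30112 of 47319 probes 1 symbol, left 17199 without one and gave 8 more than 1. Members and lists were chosen with earlier results of these data known.

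The replicate numbers were checked as pairs. Deviations of arrays with the same number correlated at 0.150 for BL-41, at 0.298 for SU-DHL-4 and at 0.168 for Oci-Ly-2. These values had no reference to be set against, so whether the numbers pair the arrays was not settled. The main model did not pair them, and a fit with the number as a block was an alternative. Other alternatives changed the normalization, filter, threshold, control arm, probe rule and arrays, or left out each array or line. On simulated data for the 4 h comparison (22072 probes, 50 changed at each size), 54% of changes of 0.6 log2 units were recovered, 90% of 0.8 and 94% of 1.0 and 1.2, with 0 false calls. The simulated noise was independent between arrays, with no pairing and with the same change in every line. These rates therefore do not cover spread between cultures or between lines. The test between lines recovered 25 of 100 differences of 1.5. The number of arrays limits the precision.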

Additional observations from a re-analysis of the deposited data

Results flagged for a closer look

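In each group of 6 arrays, centred on its cell line, the highest and lowest value were compared with their neighbours by Dixon's test at its 95% limit. Of 36 sets of values, 2 were singled out, and chance singles out about 1 in 20. The MPLKIP value of Oci-Ly-2 replicate 1 at 4 h with artesunate was −0.106, above the other 5 arrays at −0.614 to −0.434. The CIRBP value of SU-DHL-4 replicate 1 at 0 h was −0.0748, above the other 5 arrays at −0.352 to −0.264.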

How the results depend on the processing

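Of the genes followed across the alternatives, the 18 called ones kept their sign in all, 5 of the 7 others (ATF4, HSPA5, PPP1R15A, ACTB and GAPDH) changed sign around small values, and the counts of calls moved. Against 6 genes higher and 153 lower, the deposited processed intensities gave 1 and 62, the group means 0 and 0, leaving out BL-41 0 and 0, SU-DHL-4 0 and 0, and Oci-Ly-2 0 and 9. Reading each gene from its probe of lowest change gave 3 and 68. With the 12 h controls in place of the 0 h controls 13 genes were higher and 112 lower, of which 1 and 74 were shared. The processed intensities also took the changes of EYA3 to 0.35, STOM 0.28, G3BP1 −0.62, MIGA1 −0.64, LSM5 −0.51 and NDUFAF4 −0.50, and the 12 h controls took STOM to 0.33 and OMA1 to −0.29. Leaving out 1 array gave 4 to 10 higher and 95 to 150 lower, the fewest without BL-41 4 h artesunate replicate 1. With the replicate number as a block, which pairs the arrays, 8 genes were higher and 152 lower, of which 6 and 141 were shared, and 0 probes differed between lines. The share of called probes with the drift mark, 19.0%, became 36.1% with the processed intensities, 11.3% with median scaling, 10.4% without SU-DHL-4 0 h control replicate 1 and at most 28.2% without another array. The share of genes called again in the same direction at 12 h, 37.7%, lay between 35% and 48.2% on leaving out 1 array. The drift and 12 h shares could not be computed from the group means, which called 0 genes. The causes were not tested.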
